A study of Mus musculus with 8 samples.

Results

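The genes described here share a small set of name stems, and most encode proteins of the pre-mRNA splicing machinery or its hnRNP partners. They were chosen by symbol: Hnrn, Srsf, Snrp, Sf3a, Sf3b, Prpf or Lsm at the start, with the older stems Hnrp and Sfrs included and Snrpn left out. The name rule uses no measured value, but it was set with earlier results of these data known. Through the stem Lsm the rule also takes genes with roles outside pre-mRNA splicing, such as Lsm1, Lsm10, Lsm11 and Lsm14a. Of 16255 features on the array, 57 genes met the rule, through 89 probes, and 54 of them could be tested among 14015 features, each with values on at least 3 nocodazole and 3 untreated arrays. The 54 comprised 13 hnRNP genes, 9 SR protein genes, 7 genes of the Sm ring and of the U1 and U2 snRNPs, 6 SF3A and SF3B genes, 10 Prpf genes and 9 Lsm genes. The 3 genes left untested were Hnrnpd, with a value on 2 nocodazole and 3 untreated arrays, and Lsm8 and Prpf38a, each with a value on 4 nocodazole arrays and 1 untreated array.

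The values come from 8 cDNA microarrays with 2 colours. On each array RNA of HM-1 was hybridised together with RNA of R1, both being mouse embryonic stem cell lines. On 4 arrays both lines had been given nocodazole, which depolymerises microtubules and holds cells in mitosis, and on 4 arrays both lines were untreated. HM-1 carried Cy5 on nocodazole replicates 1, 2 and 3 and on untreated replicates 1 and 2, and Cy3 on nocodazole replicate 4 and on untreated replicates 3 and 4. The labels state no dose, duration or passage, and they do not say whether replicates are separate cultures. The p-values therefore reflect only how far these arrays scatter, and that scatter may be technical. The protocols speak of organs and of a pool of control animals, which the channel labels do not match.

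Splicing removes introns in a series of assembly steps. The U1 snRNP binds the donor site, the U2 snRNP with SF3A and SF3B binds the branch point, and the tri-snRNP of U4, U6 and U5 joins before the catalytic rearrangement. SR proteins and hnRNPs bind exons and introns around these sites and, often in opposition, decide which exons are kept, and embryonic stem cells hold a splicing programme that shifts when they differentiate.

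The promoters of the members were compared by their letters, since they show a sequence feature that the name rule did not use. For 45 of the 54 genes a window of 250 bases before the annotated start was found in the RefSeq promoter table (GRCm38.p6). In these windows 6 motifs were searched on both strands, and a base could count for several motifs. The ETS core CCGGAAG occurred in 13 of 45 windows (28.9%), against 7.05% of all 27025 promoters and 12.8% of the promoters of 7065 named genes that were tested on the arrays. The GC box GGGCGG occurred in 60% of the members' windows, against 32.9% of all and 56.2% of the tested genes, and the CCAAT box CCAAT in 46.7%, against 34.5% and 36.1%. The TATA box TATAAA was found in 11.1%, against 13% and 7.12%, the NRF1 site GCGCATGCG in 2.22%, against 1.49% and 2.76%, and the E-box CACGTG in 6.67%, against 6.05% and 8.63%. The ETS core was unevenly spread over the families: it was present in 5 of 5 SF3A and SF3B windows, 3 of 9 SR protein windows, 2 of 5 Sm, U1 and U2 windows, 2 of 9 Prpf windows, 1 of 11 hnRNP windows and 0 of 6 Lsm windows. These counts were seen before this split was chosen, so they are a description, and a match of letters is not a bound site. The last 150 bases before the start are shown for 4 SF3A and SF3B genes, because they share the ETS core, and for 4 genes that lead a comparison of the ratios; letters in capitals belong to one of the 6 motifs, and in Sf3b6 a GC box runs directly into an ETS core.
Sf3a1 (chr11:4160204-4160353, plus strand): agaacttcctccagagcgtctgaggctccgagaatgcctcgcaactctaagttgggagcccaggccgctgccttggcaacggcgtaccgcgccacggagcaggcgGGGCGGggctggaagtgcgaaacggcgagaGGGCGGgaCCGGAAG
Sf3a3 (chr4:124714711-124714860, plus strand): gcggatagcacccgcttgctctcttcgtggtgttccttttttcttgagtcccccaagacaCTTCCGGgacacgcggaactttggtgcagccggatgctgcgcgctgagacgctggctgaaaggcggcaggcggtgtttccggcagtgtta
Sf3b2 (chr19:5295458-5295607, minus strand): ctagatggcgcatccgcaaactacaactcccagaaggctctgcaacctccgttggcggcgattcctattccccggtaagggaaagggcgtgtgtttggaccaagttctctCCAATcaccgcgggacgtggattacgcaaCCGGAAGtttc
Sf3b6 (chr12:4817458-4817607, plus strand): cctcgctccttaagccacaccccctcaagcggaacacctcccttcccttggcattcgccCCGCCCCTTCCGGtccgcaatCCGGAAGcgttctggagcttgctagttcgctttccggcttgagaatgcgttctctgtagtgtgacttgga
Prpf40b (chr15:99295091-99295240, plus strand): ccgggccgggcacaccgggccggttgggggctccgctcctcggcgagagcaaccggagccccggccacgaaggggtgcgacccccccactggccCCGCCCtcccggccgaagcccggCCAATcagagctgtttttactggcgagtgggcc
Snrpa1 (chr7:66060186-66060335, plus strand): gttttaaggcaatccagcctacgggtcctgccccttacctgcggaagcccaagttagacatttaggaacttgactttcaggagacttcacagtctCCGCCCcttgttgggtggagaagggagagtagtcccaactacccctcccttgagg
Hnrnpa2b1 (chr6:51469895-51470044, minus strand): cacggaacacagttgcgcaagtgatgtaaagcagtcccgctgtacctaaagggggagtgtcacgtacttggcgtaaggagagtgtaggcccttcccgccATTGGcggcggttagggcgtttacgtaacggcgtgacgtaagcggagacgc
Hnrnpl (chr7:28810740-28810889, plus strand): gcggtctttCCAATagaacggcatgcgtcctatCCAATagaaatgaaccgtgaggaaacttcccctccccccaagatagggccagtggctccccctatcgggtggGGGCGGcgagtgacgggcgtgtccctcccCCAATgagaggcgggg

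Each value below is a log2 ratio between the lines with the sign of the deposited table, with the median of every array set to 0. The sources used here do not tell which line is the numerator, so no line is called higher. The table can also be read with the signs of the 3 arrays that have HM-1 in Cy3 turned. Turned values are given for the counts of genes past a threshold and for the genes that lead a comparison with the deposited signs. Some members that lead in the turned reading are named beside those counts. Fitted ratios are evaluated midway between the dye labels, so they can differ from the mean of the arrays of a condition. A ratio compares whole cultures, so fewer cells that express a gene and less RNA per cell cannot be told apart. Treated and untreated cells of one line never shared an array, so the difference between conditions says how the gap between the lines changed and not how either line responded to the drug. The table holds no intensities, so the level of a gene, and of stem cell markers such as Sox2 and Zfp42, could not be checked.

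On the arrays as a whole, between 17928 and 19445 probes had a value, and the SD over features of an array lay between 0.58 and 1.10. Over all features, which share arrays, Pearson's r of 2 arrays ran from 0.016 to 0.227 where HM-1 had the same dye (13 pairs) and from -0.184 to 0.0057 where it had not (15 pairs). The 9 measured endoderm markers had a median fitted ratio of -0.52 with nocodazole, with an array median of 0.69 on replicate 1 and of -0.85 to -0.70 on the others, and of -0.74 in untreated cells, with array medians between -0.59 and -0.17. For 8 stem cell markers the medians were 0.055 and 0.18, and for 12 feeder fibroblast markers -0.15 and -0.18. On nocodazole replicate 1 the array medians of these lists were -0.21 and 0.016. On the other nocodazole arrays they were 0.0885 to 0.23 and -0.44 to -0.10. For 10 genes of G2 and mitosis the median fitted ratios were -0.039 and -0.18. At an unadjusted limma p under 0.05 in untreated cells there were 3 of these 10, all negative, against 6.34% of all features. The endoderm list held 3 of 9, all negative, and the stem cell list 2 of 8, all positive. The feeder list held 2 of 12, with 1 of each sign. The part of these differences in the ratios of the splicing genes was not tested. On nocodazole replicate 1, Dab2, Sparc, Ctsl and Serpinh1 stood at 1.28, 1.24, 0.69 and 1.26, and were negative on every other array. Col4a1 stood at -1.27 there and was positive on every other array. The remaining endoderm markers had both signs on the other arrays. A turned sign of nocodazole replicate 1 was not tested, and every fit that used this array kept its deposited sign. Of 654 spot values of the members, 2 were codes for a denominator of 0 and were set to missing. A ratio of whole numbers up to 10, to within 0.0015 on the log2 scale, which a dim spot can give, was seen in 11.04% of the members' values and in 14.6% of all values. After a shift of all values by 0.05, 4.38% to 5.04% of the values of an array met the same criterion.

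**Figure D1:**
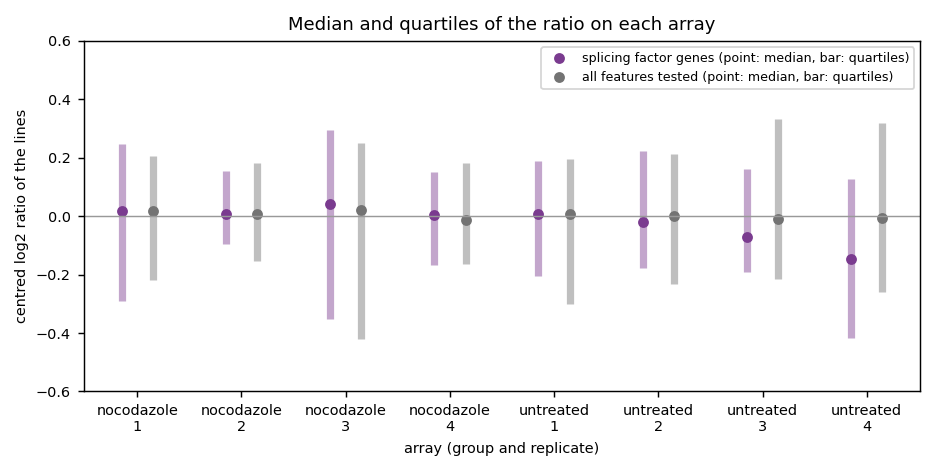
Centred log2 ratio of the lines (vertical axis) on each of the 8 arrays (horizontal axis), as the median (points) and quartiles (bars) over the 54 splicing factor and hnRNP genes (purple, or fewer where a value is missing) and over all features tested (grey). The members' medians lie between 0.0033 and 0.04 on the nocodazole arrays and between -0.15 and 0.0085 on the untreated arrays, with untreated replicate 4 lowest.

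As a group the 54 genes stood close to a ratio of 1 between the lines. With nocodazole the median over the members of the fitted log2 ratio was -0.015, with 26 genes positive and 28 negative, against -0.0056 over all features, of which 48.6% were positive. In untreated cells the members' median was -0.036, with 24 positive and 30 negative, against -0.0047 and 48.8% positive over all features. On single arrays the members' median was 0.018, 0.0070, 0.04 and 0.0033 on nocodazole replicates 1 to 4, and 0.0085, -0.021, -0.071 and -0.15 on untreated replicates 1 to 4. The SD of these 8 medians was 0.061, and untreated replicate 4 lay lowest. Single genes spread more widely, with quartiles of the members at -0.42 and 0.13 on untreated replicate 4 and at -0.35 and 0.30 on nocodazole replicate 3. With the Cy3 arrays turned the medians were 0.024 with nocodazole and 0.042 untreated.

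No member passed the test in any comparison. The test was limma over all 8 arrays, with a coefficient for each condition and a term for the dye label, and two-sided p-values adjusted by Benjamini-Hochberg over the 14015 features at a threshold of 0.05. With nocodazole 0 of 54 members passed (0% of all features did), and 1 had an unadjusted p under 0.05, against 2.89% of all features. In untreated cells 0 passed (0% of all features) and 3 had such a p, against 6.34%. For the mean ratio over both conditions 0 passed (0% of all features) and 3 had such a p, against 5.53%. The smallest adjusted p among the members in limma was 0.999 with nocodazole, 0.78 untreated and 0.897 for the mean. The 3 genes of the untreated and of the mean ratio are 5.56% of the members, near the share of all features, and the 1 gene with nocodazole is 1.85%. With the Cy3 arrays turned 0 members and 0% of all features passed. An unadjusted p under 0.05 was then seen in 3 members with nocodazole (5.11% of all features), 7 untreated (10.6%) and 6 for the mean (10.6%). The smallest adjusted p among the members in limma was 0.799 with nocodazole (Prpf4b, fitted ratio -0.64), 0.205 untreated (Srsf4, -1.70) and 0.31 for the mean (Prpf4b, -0.49). Srsf4 had values on 3 arrays of each condition. Of the 7 untreated members 4 were positive, and Lsm12 and Lsm14a stood at -0.53 and -0.35.

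**Figure D2:**
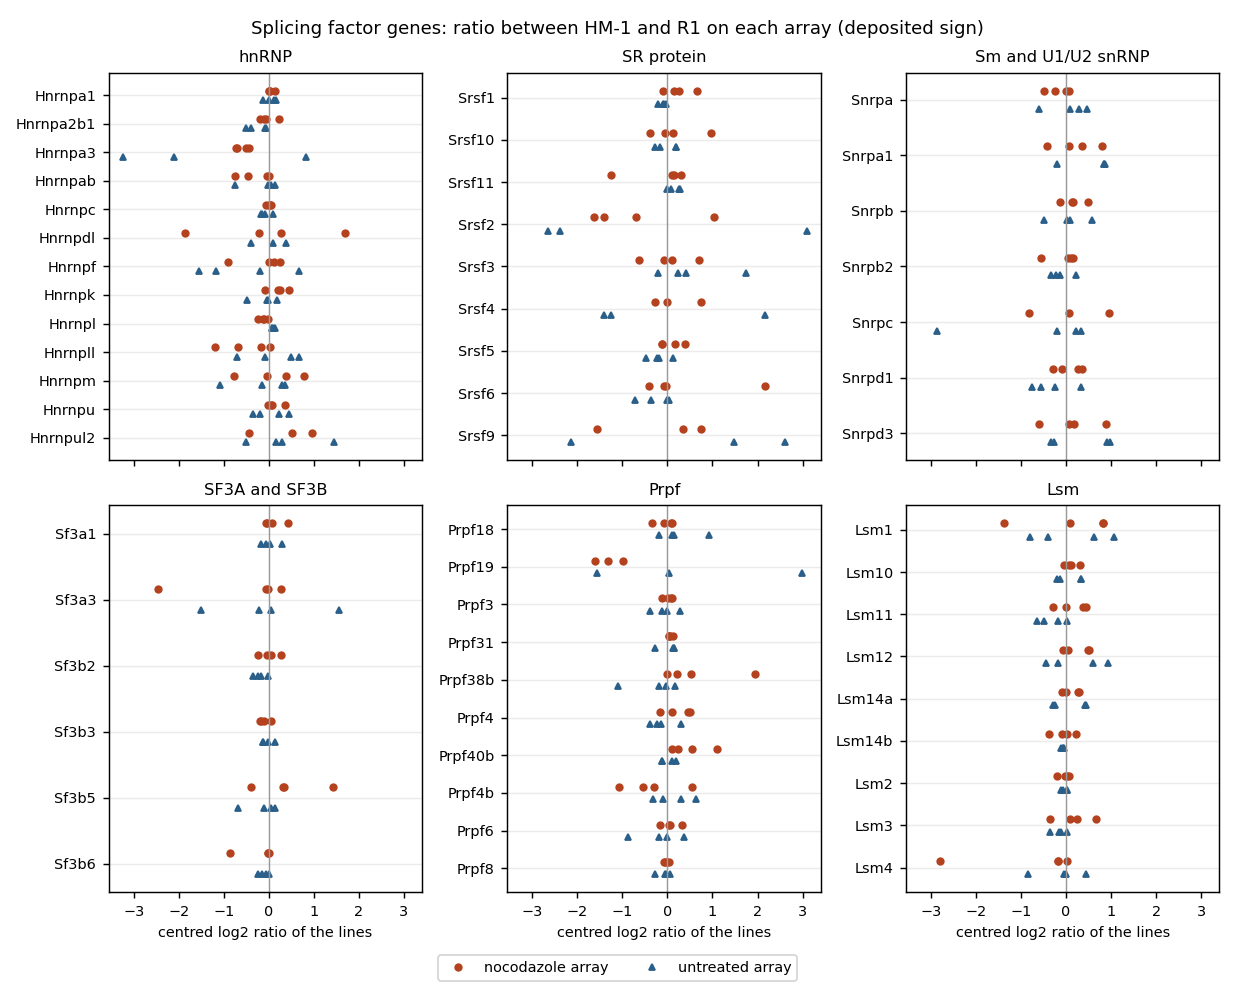
Centred log2 ratio between HM-1 and R1 with the deposited sign (horizontal axis) for each of the 54 genes, in 6 panels by family, with 1 red circle per nocodazole array and 1 blue triangle per untreated array. Most genes hold values on both sides of 0 in both conditions, while a few, such as Srsf2, Srsf9, Hnrnpa3 and Prpf19, spread over several log2 units.

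The hnRNPs package nascent RNA and mostly counter exon inclusion. Of 13 tested, 6 had a positive fitted ratio with nocodazole and 6 in untreated cells, with medians of -0.024 and -0.08. Hnrnpa1, which antagonises SR proteins at exons, had values of 0.014, 0.024, 0.14 and -0.002 on nocodazole replicates 1 to 4, and of 0.17, -0.005, -0.13 and 0.12 on untreated replicates 1 to 4. Hnrnpc, which binds uridine tracts and is averaged over 3 probes, had values of 0.043, -0.074, 0.023 and 0.0033 with nocodazole, and of 0.09, -0.088, -0.15 and -0.17 untreated. The groups overlapped for both genes, and both were among the 3 members of smallest spread, with SDs over the 8 arrays of 0.096 and 0.094. The probes of Hnrnpc differed within arrays, as on nocodazole replicate 1, where they gave -0.42, 0.16 and 0.39 around the mean of 0.043. Hnrnpk, which binds cytidine-rich RNA, averaged 0.20 ± 0.22 with nocodazole and -0.09 ± 0.28 untreated (SD, n = 4 each). Hnrnpm averaged 0.086 ± 0.67 with nocodazole and -0.15 ± 0.67 untreated (SD, n = 4 each), a spread several times its means.

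Hnrnpa2b1 and Hnrnpa3, close relatives of Hnrnpa1, gave the negative untreated ratios of smallest p with the deposited signs. Hnrnpa2b1 had values of 0.23, -0.20, -0.058 and -0.10 on nocodazole replicates 1 to 4, and of -0.067, -0.082, -0.51 and -0.40 on untreated replicates 1 to 4. All 4 untreated arrays were negative, the more so the 2 with HM-1 in Cy3, and the groups overlapped. The fitted untreated ratio was -0.26 (SE 0.11, limma adjusted p = 0.78). Hnrnpa3 had values of -0.72, -0.50, -0.71 and -0.45 with nocodazole, and of -2.10, 0.82 and -3.24 on untreated replicates 1 to 3, with none on replicate 4. The 4 nocodazole arrays lay close together, while the untreated arrays reached far on both sides of them. The fitted ratio was -1.69 untreated (SE 0.68, limma adjusted p = 0.787) and -1.28 for the mean (adjusted p = 0.897). The untreated ratios of Hnrnpa2b1 and Hnrnpa3 had the opposite sign with the Cy3 arrays turned, 0.19 and 1.05. Of the values of Hnrnpa3 42.9% were ratios of small whole numbers. Leaving out single arrays gave untreated ratios from -2.67 to -0.54.

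Hnrnpl, which binds CA repeats and silences variable exons, was with the deposited signs the only member whose conditions did not overlap. It had values of -0.008, -0.11, -0.14 and -0.23 on nocodazole replicates 1 to 4, and of 0.065, 0.07, 0.13 and 0.11 on untreated replicates 1 to 4. All nocodazole arrays were negative and all untreated arrays positive. The means were -0.12 ± 0.092 with nocodazole and 0.094 ± 0.032 untreated (SD, n = 4 each), and the fitted change was -0.22 (SE 0.12, limma adjusted p = 0.996). Such a separation with nocodazole below was seen in 1 of 54 members, or 1.85%, against 1.46% of all features. With nocodazole above it was seen in 0 of 54, against 1.23%. Its paralogue Hnrnpll, with 2 probes, averaged -0.51 ± 0.55 with nocodazole and 0.096 ± 0.62 untreated (SD, n = 4 each), and the groups overlapped. With the Cy3 arrays turned the fitted change of Hnrnpl was 0.027.

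The SR proteins, which bind exonic enhancers through RNA recognition motifs and recruit the splicing machinery with arginine-serine tails, were the family with the widest spread. The median SD over arrays of the 9 genes was 0.71, against 0.384 for all 54 members and 0.418 for all features. Of the 9 genes 66.7% had a value on all 8 arrays, against 85.2% of the members. Srsf2, Srsf4 and Srsf9, with an SD above 1, had 1 probe each and lacked a value on at least 1 array. The part of probe number and missing values in the spread of the family was not tested. Srsf2, a constitutive and regulatory factor of nuclear speckles, had values of -1.42, -1.63, -0.69 and 1.03 on nocodazole replicates 1 to 4, and of -2.38, -2.65 and 3.09 on untreated replicates 1, 3 and 4. Its sign differed between replicates within both conditions. Srsf9 had values of 0.74, 0.34 and -1.57 on nocodazole replicates 1 to 3, and of 1.47, 2.61 and -2.14 on untreated replicates 1, 3 and 4, again with both signs in each condition. Srsf6 had values of -0.071, -0.026, 2.17 and -0.41 with nocodazole, and of -0.011, 0.033, -0.71 and -0.36 untreated, so that 1 array held the largest value. These 3 genes had 1 probe each. Srsf5, with 2 probes, averaged 0.076 ± 0.25 with nocodazole and -0.19 ± 0.25 untreated (SD, n = 4 each), and Srsf10, which represses splicing when dephosphorylated, 0.16 ± 0.57 and -0.0092 ± 0.24 (SD, n = 4 each).

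Srsf1, the founding member of the family, had values of 0.66, -0.10, 0.25 and 0.15 on nocodazole replicates 1 to 4, and of -0.036, -0.21, -0.10 and -0.084 on untreated replicates 1 to 4. All untreated arrays were negative and 3 of 4 nocodazole arrays positive, with an overlap through nocodazole replicate 2. The fitted change was 0.34 (SE 0.20, limma adjusted p = 0.996), or 0.17 with the Cy3 arrays turned. Its 2 probes disagreed, as on untreated replicates 3 and 4, where one gave 0.15 and 0.27 and the other -0.36 and -0.44, and with 1 probe per symbol the fitted nocodazole ratio was 0.0051, against 0.23 for the mean over probes. Srsf3, the smallest SR protein, averaged 0.028 ± 0.55 with nocodazole and 0.55 ± 0.84 untreated (SD, n = 4 each). Its probes disagreed: on the 8 arrays one lay between -0.20 and 0.20, while the other, with 6 values, lay between -1.34 and 3.32. The mean over probes therefore followed the second probe.

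In the snRNPs, the Sm proteins form the ring that all of the major snRNAs except U6 carry. Snrpb, a protein of that ring, averaged 0.16 ± 0.25 with nocodazole and 0.041 ± 0.43 untreated, and Snrpd3 0.13 ± 0.61 and 0.32 ± 0.72 (SD, n = 4 each). Snrpa, a U1 snRNP protein, averaged -0.17 ± 0.25 with nocodazole and 0.057 ± 0.46 untreated, and Snrpb2, its relative in the U2 snRNP, -0.064 ± 0.33 and -0.12 ± 0.24 (SD, n = 4 each). In all 4 the difference between conditions was smaller than the SD of at least 1 condition. Snrpc, which steadies the pairing of U1 with the donor site, had values of 0.94, 0.071 and -0.83 on nocodazole replicates 2 to 4, and of -0.20, 0.34, -2.87 and 0.23 on untreated replicates 1 to 4.

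Snrpa1, the U2 snRNP protein that pairs with Snrpb2 on the U2 snRNA, gave the positive untreated ratio of smallest p among the members with the deposited signs. It had values of -0.43, 0.055, 0.79 and 0.35 on nocodazole replicates 1 to 4, and of -0.20, 0.83, 0.85 and 0.85 on untreated replicates 1 to 4. Replicate 1 was negative in both conditions and the other arrays were positive, with untreated replicates 2 to 4 between 0.834 and 0.855. The fitted ratio was 0.59 untreated (SE 0.24, limma adjusted p = 0.783) and 0.44 for the mean (SE 0.17, adjusted p = 0.897). Both had the opposite sign with the Cy3 arrays turned, at -0.27 and -0.24.

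SF3A and SF3B, which bind the U2 snRNP to the branch point, were the family of smallest spread, with a median SD over arrays of 0.249 for 6 genes. Sf3b3, a large scaffold of SF3B, had values of 0.05, -0.17, -0.097 and -0.20 with nocodazole, and of -0.02, 0.13, -0.13 and -0.12 untreated. Sf3b2, averaged over 3 probes, averaged 0.0029 ± 0.21 with nocodazole and -0.20 ± 0.14 untreated, and Sf3a1 0.098 ± 0.23 and 0.019 ± 0.20 (SD, n = 4 each). All 4 untreated means over the probes of Sf3b2 were negative, as were 2 of its 4 nocodazole means. Its probes disagreed, as on untreated replicate 1, where they gave -1.12, 0.12 and 0.25. Sf3b5, a small subunit, averaged 0.41 ± 0.75 with nocodazole and -0.15 ± 0.38 untreated (SD, n = 4 each). Sf3a3 was the exception, with values of -2.47, -0.066, 0.28 and -0.011 with nocodazole, and of 0.039, -1.51, 1.56 and -0.22 untreated. Its SD of 1.21 was the largest among members with a value on all 8 arrays, and its probes disagreed. One lay between -0.22 and 0.12 on every array, while the other, with 5 values, lay between -4.85 and 2.99. The 5 SF3A and SF3B genes whose promoters hold the ETS core thus included Sf3a3, with an SD of 1.21, as well as 4 genes with SDs of 0.114 to 0.296.

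The Prpf genes encode proteins of the tri-snRNP and of the activation steps. Prpf8, the scaffold at the catalytic centre, had values of 0, -0.059, 0.04 and -0.078 on nocodazole replicates 1 to 4, and of 0.066, -0.05, -0.022 and -0.27 on untreated replicates 1 to 4, an SD of 0.10 over the 8 arrays. Prpf3 and Prpf4, which sit on the U4/U6 snRNP, averaged 0.025 ± 0.10 and 0.22 ± 0.31 with nocodazole, and -0.06 ± 0.28 and -0.11 ± 0.29 untreated (SD, n = 4 each). Prpf31, which holds the tri-snRNP together, averaged 0.063 ± 0.043 with nocodazole and 0.035 ± 0.21 untreated (SD, n = 4 each). The means of these core proteins lay within 0.22 of 0 in both conditions. Prpf19, a ubiquitin ligase of the activated spliceosome, had values of -1.61, -0.99 and -1.31 on nocodazole replicates 2 to 4, and of 2.98, 0.04 and -1.56 on untreated replicates 1, 3 and 4. Its 3 nocodazole values were close together and negative, and 1 untreated value was of like size. The fitted ratio with nocodazole was -1.62 (SE 0.70, limma adjusted p = 0.999) and the fitted change -2.42 (SE 1.01, adjusted p = 0.996), and leaving out single arrays gave changes from -4.28 to -0.55. With the replicate number as a block both signs turned, to 0.15 for the ratio and 0.24 for the change, while with the Cy3 arrays turned they were -0.40 and -1.86.

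Prpf40b, a WW domain protein of the U1 snRNP that reaches across the intron, had the smallest p of the members with nocodazole. It had values of 0.10, 0.24, 0.54 and 1.10 on nocodazole replicates 1 to 4, and of -0.13, 0.20, 0.097 and -0.11 on untreated replicates 1 to 4. All nocodazole arrays were positive and the untreated arrays lay on both sides of 0, with an overlap between nocodazole replicate 1 and untreated replicate 2. The means were 0.50 ± 0.44 with nocodazole and 0.013 ± 0.16 untreated (SD, n = 4 each). The fitted ratio was 0.58 with nocodazole (SE 0.17, limma adjusted p = 0.999) and 0.013 untreated, and the fitted change was 0.56 (SE 0.23, adjusted p = 0.996). The highest value belonged to the nocodazole array with HM-1 in Cy3, and with the Cy3 arrays turned the fitted ratio was -0.21 and the change -0.23. Leaving out single arrays gave ratios from 0.27, without nocodazole replicate 4, to 0.67.

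**Figure D3:**
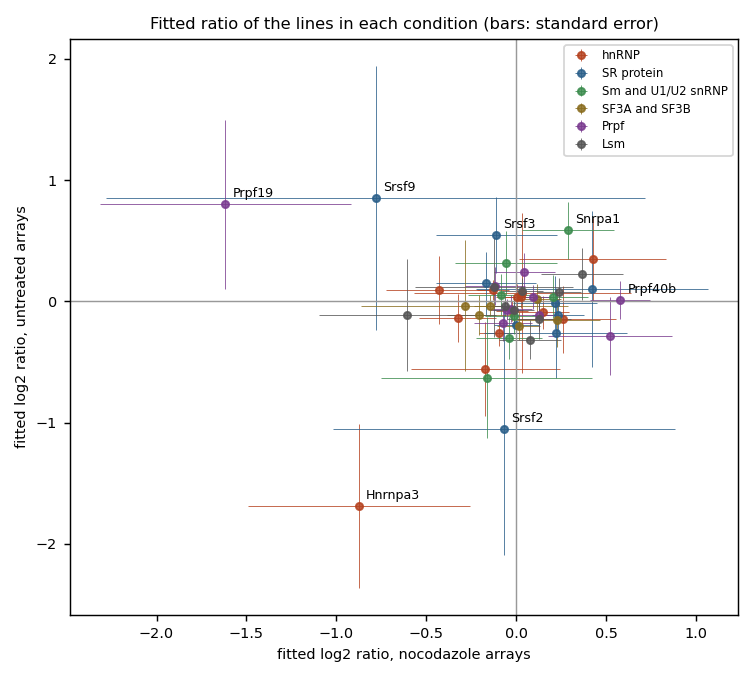
Fitted log2 ratio of the lines for each of the 54 genes, coloured by family, with bars of 1 standard error from limma. The horizontal axis shows the nocodazole arrays and the vertical axis the untreated arrays. The fit is evaluated midway between the dye labels, so it can lie outside a gene's own values, as for Hnrnpa3 with nocodazole. Most genes lie within 0.5 of 0 on both axes; Prpf40b stands at 0.58 and 0.013, Snrpa1 at 0.29 and 0.59, Hnrnpa3 at -0.88 and -1.69, and Prpf19 at -1.62 and 0.80.

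Several Lsm proteins form rings like the Sm ring, on U6 in the nucleus and on messenger RNA bound for decay in the cytoplasm. Lsm2, found in both rings, had values of 0.07, -0.023, 0.012 and -0.20 on nocodazole replicates 1 to 4, and of 0.01, -0.057, -0.12 and 0.017 on untreated replicates 1 to 4. Its SD over arrays of 0.087 was the smallest of all 54 members. Lsm3 averaged 0.16 ± 0.42 with nocodazole and -0.15 ± 0.16 untreated (SD, n = 4 each). Lsm4 had values of 0.015, -0.18, -2.80 and -0.17 with nocodazole, and of -0.004, -0.85, 0.44 and -0.037 untreated, so that 1 nocodazole array carried most of its SD of 1.02. Lsm1, the subunit that marks the cytoplasmic ring, averaged 0.082 ± 1.04 with nocodazole and 0.12 ± 0.87 untreated (SD, n = 4 each), and shared with Srsf6 an SD over arrays of 0.886. Lsm10 and Lsm11 belong to the U7 snRNP, which trims histone messages. Lsm11, averaged over 3 probes, had values of 0.45, 0.0080, 0.37 and -0.29 with nocodazole, and of -0.48, -0.17, 0.03 and -0.64 untreated. Its fitted untreated ratio was -0.31 (SE 0.16, limma adjusted p = 0.833). The probes disagreed on the untreated arrays, where they lay between -0.70 and 0.99, between -0.069 and 0.082, and between -1.60 and 0.26. Lsm10 averaged 0.11 ± 0.15 with nocodazole and 0.086 ± 0.28 untreated (SD, n = 4 each).

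The change of the ratio with nocodazole passed the test in 0 of 54 members, as in 0% of all features. At an unadjusted p under 0.05 there was 1 member, Prpf40b, against 3.32% of all features. The members' median change was 0.067, with 32 positive and 22 negative, against -0.0018 and 49.7% positive over all features. The median change of the 10 genes of G2 and mitosis was 0.18, with 9 positive, and its part in the members' values was not tested. With the Cy3 arrays turned the median was -0.047, and without nocodazole replicate 4 it was -0.011. In the turned reading 0 members and 0% of all features passed, and 3 members had an unadjusted p under 0.05, against 4.89% of all features. They were Srsf4 at 1.77, Lsm12 at 0.65 and Srsf10 at -0.62.

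With the deposited signs no member had the same sign on every array. None of the 54 was positive on every array with a value, against 0.642% of all features, and none was negative on every array, against 0.293%. Turning the Cy3 arrays would make Prpf4b negative, and Hnrnpu and Sf3b5 positive, on every array. The shares of members and of all features were not counted in that reading. The 4 members of smallest SD over arrays with 8 values were Lsm2, Hnrnpc, Hnrnpa1 and Prpf8, each with both signs in at least 1 condition. Their SDs of 0.087 to 0.10 are the lowest of a set chosen for being low.

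The members were also compared by dye label, which the labels give for every array. With the ratio on arrays with HM-1 in Cy5 set against that on arrays with HM-1 in Cy3, 0 of 54 members passed in limma, as 0% of all features, and 3 had an unadjusted p under 0.05, against 9.32% of all features. In the turned reading 0 members and 0% of all features passed, and 1 member had such a p, against 5.18%. Prpf4b, a kinase of the tri-snRNP with 4 probes, had values of -0.30, -1.07, -0.55 and 0.54 on nocodazole replicates 1 to 4, and of -0.098, -0.32, 0.30 and 0.63 on untreated replicates 1 to 4. The 5 arrays with HM-1 in Cy5 were negative and the 3 with HM-1 in Cy3 positive, a fitted difference of -0.89 (SE 0.24, limma adjusted p = 0.433). Its probes ranged over 2.17 on a typical array. Hnrnpu, a scaffold protein of nuclear RNA averaged over 3 probes, had values of 0.062, 0.045, 0.35 and -0.016 with nocodazole, and of 0.23, 0.45, -0.20 and -0.34 untreated. Its probes disagreed, as on untreated replicate 2, where they gave -0.34, -0.039 and 1.73. The mean over probes was positive with HM-1 in Cy5 and negative with HM-1 in Cy3, a difference of 0.42 (SE 0.17, adjusted p = 0.523). Prpf6, which bridges U5 and U4/U6, separated the same way with a difference of 0.54 (SE 0.23, adjusted p = 0.537). Lsm14a, a protein of cytoplasmic P-bodies, gave -0.48 (SE 0.17, adjusted p = 0.499) with an overlap of the dye labels. Arrays with HM-1 in Cy5 lay wholly above the others in 4 members (Hnrnpu, Prpf6, Sf3b5 and Srsf6), or 7.41%, against 6.98% of all features, and wholly below in 1 member, Prpf4b, against 5.53%. The members' median for the dye label was 0.063, against -0.016 over all features. The fitted differences in the turned reading were 0.11 for Prpf4b, 0.099 for Hnrnpu, -0.22 for Prpf6 and 0.23 for Lsm14a.

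The spread of each gene over the arrays was set beside its number of probes. The 31 members with 1 probe had a median SD of 0.417, and 8 of them exceeded 1, while the 23 with at least 2 probes had a median of 0.364, and 1 of them, Sf3a3, exceeded 1. Over all 54 members 13 genes (24.1%) had an SD below 0.25 and 9 (16.7%) above 1, against 28% and 17.9% of all features. Among named genes 18.9% of those with 1 probe and 12.3% of those with more exceeded an SD of 1, while their medians ran the other way, at 0.38 with 1 probe and 0.484 with more. Probes of one gene differed within an array by a median of 0.14 (Sf3b6) to 2.17 (Prpf4b). The 2 probes of Hnrnpf, which binds guanosine tracts, showed this too: one lay between -0.19 and 0.38 on all 8 arrays, and the other, with 6 values, between -3.04 and 1.22.

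**Figure D4:**
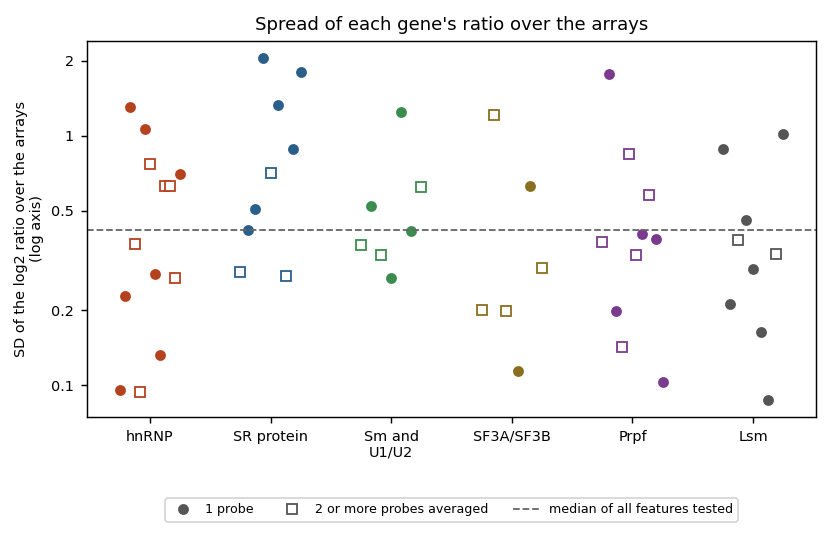
SD of the centred log2 ratio over the arrays (vertical, log axis) for each of the 54 genes by family (horizontal axis), with filled circles for genes with 1 probe and open squares for genes averaged over several, and the median of all features tested (0.418) as a dashed line. The SR proteins lie highest, with a median of 0.71, the SF3A and SF3B genes lowest, with 0.249, and 8 of the 9 genes above 1 have 1 probe.

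Other genes of the pathway, which the name rule did not take, were taken from a list chosen by role. Of 134 listed, 96 were tested, and 0 passed in any comparison. At an unadjusted p under 0.05 there was 1 with nocodazole (1.04% of the list, against 2.89% of all features), 10 untreated (10.4%, against 6.34%), 6 for the mean (6.25%, against 5.53%) and 5 for the change (5.21%, against 3.32%). Of the 10 untreated, 3 were positive and 7 negative. In the turned reading the counts were 2 with nocodazole (2.08%, against 5.11%), 15 untreated (15.6%, against 10.6%), 11 for the mean (11.5%, against 10.6%) and 8 for the change (8.33%, against 4.89%), and of the 15 untreated 9 were positive and 6 negative. The median ratio of the list was -0.024 with nocodazole and -0.065 untreated with the deposited signs, and 0.015 and 0.038 with the Cy3 arrays turned. Khdrbs1, an RNA-binding regulator of exon choice, had values of 0.034, 0.33, 0.12 and 0.27 on nocodazole replicates 1 to 4, and of 0.25, 0.62, 1.30 and 0.77 on untreated replicates 1 to 4. It was positive on all 8 arrays, with a fitted ratio of 0.73 untreated (SE 0.14, limma adjusted p = 0.631) and 0.51 for the mean (adjusted p = 0.897). Turned, they were -0.30 and -0.25. Plrg1 and Cdc5l, proteins of the same complex as Prpf19, had fitted untreated ratios of -1.02 (SE 0.21, adjusted p = 0.631) and -0.34 (SE 0.10, adjusted p = 0.758), against -0.37 and 0.29 with the Cy3 arrays turned. Of the values of Plrg1 62.5% were ratios of small whole numbers. Zcrb1, of the minor spliceosome, had values on 3 arrays of each condition, -0.84, -0.30 and -1.10 with nocodazole and 3.45, -0.80 and -0.23 untreated, and 66.7% of them were ratios of small whole numbers. Pspc1, a paraspeckle protein, and Cwc27, a cyclophilin of the spliceosome, were positive on all 4 nocodazole arrays, with fitted ratios of 0.27 and 0.20 (adjusted p = 0.999 each), or 0.036 and 0.16 with the Cy3 arrays turned.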

How the data were processed

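The deposited table holds 1 log2 ratio between HM-1 and R1 per probe and array. The values themselves showed the log2 scale. How the authors scanned the arrays, corrected background and normalized is not given in the sources used here, and which line is the numerator is unknown. Values with an absolute log2 above 10, which are codes for a denominator of 0, were set to missing. Of 20355 probes 14030 had 1 gene symbol, 5 several and 6320 none in the platform annotation, and 13994 matched the mouse RefSeq gene table (GRCm38.p6), used for names. Probes of one symbol were averaged, and each array was centred on its median over features.

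The test was limma 3.58.1 in R 4.3.3 (lmFit and eBayes, all 8 arrays, a coefficient per condition, a term for the dye label of HM-1), tested on simulated data first. HM-1 has Cy3 on 37.5% of the arrays by their labels and would have it on 50% by the design text, so nocodazole replicate 3 was also given the other dye. Other alternatives were the turned signs, no dye term, centring, quantile and scale normalization, array weights, the filter, 1 probe per symbol, a replicate block and single arrays left out. Deviations of arrays with the same replicate number correlated at 0.14, 0.038, -0.051 and 0.13, so the numbers were not taken to pair the arrays. The number of arrays limits the precision.

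The members and lists were chosen with earlier results of these data known. Genes named are those past the threshold, the 4 of smallest p per comparison, the 3 of largest and of smallest SD with 8 values, the 3 other splicing genes of smallest p, and members listed by role; Hnrnpf, Hnrnpll, Sf3b6, Srsf4, Srsf9 and Lsm12, and the order by dye label, were picked after their values were seen. Promoters were taken from the first window listed for a gene.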

Additional observations from a re-analysis of the deposited data

Results flagged for a closer look

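In 9 of the 97 sets of 4 values, 1 gene in 1 condition, a single array was far from its fellows by Dixon's ratio. Chance flags about 1 in 20 sets, or 4.85.

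On nocodazole replicate 3, Lsm4 stood at -2.80 against -0.18 to 0.015 on the other nocodazole arrays, Sf3b6 at -0.87 against -0.022 to 0.0060, Srsf11 at -1.25 against 0.11 to 0.29, and Srsf6 at 2.17 against -0.41 to -0.026. On nocodazole replicate 1, Sf3a3 stood at -2.47 against -0.066 to 0.28 and Snrpb2 at -0.56 against 0.044 to 0.15. On untreated replicate 1, Prpf31 stood at -0.28 against 0.11 to 0.15 and Snrpa1 at -0.20 against 0.83 to 0.86. On untreated replicate 3, Snrpc stood at -2.87 against -0.20 to 0.34.

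Hnrnpl is listed because its 4 nocodazole arrays were negative and its 4 untreated arrays positive. The fitted change of -0.22 did not pass in limma (adjusted p = 0.996).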

How the results depend on the processing

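In every comparison 0 members passed the threshold under each alternative run, and at most 1 feature of the whole table did. The median over members moved with nocodazole to 0.052 without the dye term, and to 0.052 with HM-1 taken as Cy3 on nocodazole replicate 3. It lay between -0.052 and 0.011 with single arrays left out. The untreated median was between -0.11, without untreated replicate 1, and -0.0033, without untreated replicate 4, and the median change between -0.011, without nocodazole replicate 4, and 0.070, without untreated replicate 2. The median of the mean ratio lay between -0.043 and -0.0061 and that of the dye label between 0.013 and 0.098 with single arrays left out. Without centring the dye label's median was 0.20.

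With the Cy3 arrays turned the medians were 0.042 untreated, -0.047 for the change and -0.048 for the dye label. In that reading, Prpf40b stood at -0.21 and Lsm14a at -0.071 with nocodazole; Hnrnpa2b1 at 0.19, Snrpa1 at -0.27 and Hnrnpa3 at 1.05 untreated; Prpf40b at -0.094, Hnrnpa3 at 0.64, Snrpa1 at -0.24 and Hnrnpa2b1 at 0.15 for the mean; Prpf40b at -0.23 and Hnrnpl at 0.027 for the change; and Prpf4b at 0.11, Lsm14a at 0.23 and Prpf6 at -0.22 for the dye label. Not every gene changed sign: Prpf19 with nocodazole stood at -0.40 and Lsm11 untreated at -0.011.

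With the replicate block Prpf19 stood at 0.15 with nocodazole and 0.24 for the change, and the median for the dye label was -0.0605; the cause was not tested, and the block changed no call. The number of members at an unadjusted p under 0.05 ranged over the alternatives from 1 to 5 with nocodazole, 1 to 7 untreated, 0 to 6 for the mean, 0 to 3 for the change and 1 to 8 for the dye label. Limits are the unsettled direction, 4 arrays per condition and the lack of intensities. Which near-identical transcripts a spotted cDNA also binds, as for hnRNP genes with processed copies, was not tested.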
